A study of Mus musculus with 12 samples.

Results

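The genes described here are the 3 members of the Gadd45 family (Gadd45a, Gadd45b and Gadd45g) and Cdkn1a, which are 4 of the 36047 genes to which the estimated counts were summed. They were chosen by symbol and were selected on levels already seen in these mice. Their levels and log2 fold changes (log2FC) are therefore given as a description. Calls of the 4 genes are listed only to show how the calls varied with the settings, and are no test of these genes. All 4 passed the filter on low counts and are among the 14670 genes tested. Liver RNA was sequenced from 12 male C57Bl/6J mice after 7 days on the diets, with 3 mice in each of 4 groups. RF.Ctrl mice were fed a control diet with a regular fat content and RF.SAAR mice a diet of the same fat content with sulfur amino acid restriction. HF.Ctrl and HF.SAAR mice were fed the matching diets with a high fat content. Cysteine was left out of all 4 diets, and the restricted diets held less methionine, so the control mice were also without dietary cysteine. The mice were adult, of 1 sex and housed singly. Per the study, they were given deuterium-labeled water, and food was withheld for 4 h before they were killed. Replicates are separate mice and are numbered 1 to 3 in accession order, and the labels name no pairing between groups. Mice of the same number do form a run of 4 consecutive mouse names, which the main fit does not use and the last section describes. The 4 groups are compared to ask how these genes responded to restriction at each fat content, and to fat content on each amino acid supply.

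GADD45 proteins are small nuclear proteins without enzyme activity of their own. They bind the MAP3K4 kinase upstream of p38 and JNK, PCNA and the cyclin B1 and CDK1 complex, and they are linked to excision-based DNA demethylation. Cdkn1a encodes p21, an inhibitor of cyclin-dependent kinases that also binds PCNA. In liver these genes are known as early responders to DNA damage, amino acid and endoplasmic reticulum stress, cytokines, nuclear receptor ligands and regeneration. Gadd45a and Cdkn1a are textbook targets of p53, Gadd45b responds to NF-kB, TGF-beta and the xenobiotic receptor CAR, and Gadd45g to cytokines.

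The start sites of the 4 genes are shown because the data differ between the 2 annotated starts of Cdkn1a, and because the 3 Gadd45 genes, which are paralogs, did not move together. Each window runs from 250 bases before to 50 bases after a RefSeq start site on build GRCm38.p6, is printed 5′ to 3′ on the strand of the gene, and was found for all 4 genes, with 2 windows for Cdkn1a. The windows are chr6:67037358-67037657 (minus strand) for Gadd45a, chr10:80929841-80930140 (plus) for Gadd45b, chr13:51846425-51846724 (plus) for Gadd45g, and chr17:29090729-29091028 and chr17:29093519-29093818 (both plus) for Cdkn1a. Capitals mark matches on either strand to the CCAAT box (CCAAT), the octamer (ATTTGCAT), the E-box (CACGTG), the TATA box (TATAAA) and the p53 decamer (by its consensus).
Gadd45a: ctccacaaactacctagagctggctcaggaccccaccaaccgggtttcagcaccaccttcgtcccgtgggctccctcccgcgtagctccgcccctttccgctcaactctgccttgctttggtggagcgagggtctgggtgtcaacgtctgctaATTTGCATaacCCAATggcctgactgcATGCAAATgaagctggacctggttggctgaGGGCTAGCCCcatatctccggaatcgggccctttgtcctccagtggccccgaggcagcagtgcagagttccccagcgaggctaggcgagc
Gadd45b: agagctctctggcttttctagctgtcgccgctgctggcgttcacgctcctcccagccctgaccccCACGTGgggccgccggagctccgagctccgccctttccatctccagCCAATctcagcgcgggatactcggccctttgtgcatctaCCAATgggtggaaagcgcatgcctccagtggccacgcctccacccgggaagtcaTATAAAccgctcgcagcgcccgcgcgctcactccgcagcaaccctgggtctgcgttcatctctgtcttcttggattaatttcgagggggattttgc
Gadd45g: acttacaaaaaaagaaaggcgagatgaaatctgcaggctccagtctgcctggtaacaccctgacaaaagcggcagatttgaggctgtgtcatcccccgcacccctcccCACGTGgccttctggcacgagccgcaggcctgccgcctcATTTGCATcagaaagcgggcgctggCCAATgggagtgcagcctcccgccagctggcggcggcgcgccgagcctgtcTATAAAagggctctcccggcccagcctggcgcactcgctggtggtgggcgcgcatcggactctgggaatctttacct
Cdkn1a upstream window: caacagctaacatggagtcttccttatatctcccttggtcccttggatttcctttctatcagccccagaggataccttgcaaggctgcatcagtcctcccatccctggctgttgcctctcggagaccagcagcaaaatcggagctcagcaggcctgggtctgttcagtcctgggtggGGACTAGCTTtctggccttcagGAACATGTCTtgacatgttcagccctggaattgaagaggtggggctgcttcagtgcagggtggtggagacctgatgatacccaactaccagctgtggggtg
Cdkn1a downstream window: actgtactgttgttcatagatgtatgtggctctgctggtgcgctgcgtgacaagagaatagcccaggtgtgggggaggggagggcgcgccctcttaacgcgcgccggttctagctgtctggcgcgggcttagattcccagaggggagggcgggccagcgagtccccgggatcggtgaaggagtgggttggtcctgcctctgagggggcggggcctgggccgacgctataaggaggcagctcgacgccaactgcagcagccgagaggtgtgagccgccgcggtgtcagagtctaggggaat

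The Gadd45 windows shared letters that the Cdkn1a windows lacked. The CCAAT box was found once in Gadd45a and Gadd45g and at 2 places in Gadd45b, and 37.4% of all 32851 windows of this length held it. The octamer was found at 2 places in Gadd45a and at 1 in Gadd45g, against 1.74% of all windows. Gadd45b and Gadd45g each held 1 E-box (7.15% of all windows) and 1 TATA box (13.6%), which starts 46 and 27 bases before the RefSeq start site. The p53 decamer (8.36% of all windows) was found once in Gadd45a and at 2 places in the upstream window of Cdkn1a. Of the motifs not in capitals, the GC box (GGGCGG, 35.7%) was found at 2 places in the downstream window of Cdkn1a and once each in Gadd45a and Gadd45b. The amino acid response core TGATGNAA (3.97%) was found once, in Gadd45g, where it overlaps the octamer. GTAAACA (FoxO, 3.65%), TGANTCA (AP-1, 7.81%) and the NF-kB consensus (4.51%) were not matched in these 5 windows. A match describes the letters only, and no binding was measured.

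Gadd45b (ENSMUSG00000015312, chr10:80930073-80932204, plus strand) was the member whose groups lay furthest apart. Levels are normalized CPM, the estimated counts scaled by library size after TMM. The 3 RF.Ctrl mice were at 1.32, 1.23 and 0.972 CPM and the 3 RF.SAAR mice at 7.94, 3.66 and 5.80 CPM. The HF.Ctrl mice were at 1.84, 3.34 and 0.914 CPM and the HF.SAAR mice at 7.18, 10.3 and 12.3 CPM. Every restricted mouse was thus above every control mouse, at either fat content. The means were 1.17 ± 0.178 in RF.Ctrl, 5.80 ± 2.14 in RF.SAAR, 2.03 ± 1.22 in HF.Ctrl and 9.95 ± 2.60 CPM in HF.SAAR (SD, n = 3). The log2FC was 2.30 (SE 0.42) in RF.SAAR vs. RF.Ctrl, or 4.91-fold, and 2.28 (SE 0.39) in HF.SAAR vs. HF.Ctrl, or 4.85-fold. With high fat, the log2FC was 0.78 (SE 0.36) between restricted mice and 0.80 (SE 0.44) between control mice, the latter being 0.22 without HF.Ctrl mouse 2. The groups overlapped in both of these comparisons, with HF.SAAR mouse 1 below RF.SAAR mouse 1 and HF.Ctrl mouse 3 below all RF.Ctrl mice. The counts behind the low levels are small, 16 to 24 estimated counts in each RF.Ctrl mouse against 69 to 149 in each RF.SAAR mouse.

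Cdkn1a (ENSMUSG00000023067, chr17:29090976-29100727, plus strand) was also higher in restricted mice, with a wide spread among them. The RF.Ctrl mice were at 5.21, 3.12 and 4.13 CPM and the RF.SAAR mice at 7.14, 17.9 and 9.04 CPM, without overlap. The HF.Ctrl mice were at 2.80, 3.56 and 1.89 CPM and the HF.SAAR mice at 11.8, 2.53 and 4.52 CPM. In this pair the groups overlapped, since HF.SAAR mouse 2 was below HF.Ctrl mice 1 and 2. The means were 4.15 ± 1.04 in RF.Ctrl, 11.4 ± 5.75 in RF.SAAR, 2.75 ± 0.835 in HF.Ctrl and 6.30 ± 4.91 CPM in HF.SAAR (SD, n = 3). The log2FC was 1.45 (SE 0.53) in RF.SAAR vs. RF.Ctrl, or 2.74-fold, and 1.19 (SE 0.56) in HF.SAAR vs. HF.Ctrl, or 2.28-fold. Without RF.SAAR mouse 2 the former was 0.96, and without HF.SAAR mouse 1 the latter was 0.36. High fat went with lower values, by a log2FC of -0.85 (SE 0.52) in restricted and -0.59 (SE 0.57) in control mice, and the groups overlapped. The value in restricted mice was -0.36 without RF.SAAR mouse 2 and -1.68 without HF.SAAR mouse 1, and that in control mice was -0.38 without HF.Ctrl mouse 3.

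Gadd45a (ENSMUSG00000036390, chr6:67035096-67037457, minus strand) did not separate the diets. The RF.Ctrl mice were at 2.63, 9.36 and 5.10 CPM, a range that held all 3 RF.SAAR mice at 4.05, 4.67 and 4.83 CPM. The HF.Ctrl mice were at 7.85, 6.84 and 8.53 CPM, a range within that of the HF.SAAR mice at 4.50, 9.46 and 6.92 CPM. The log2FC with restriction was -0.34 (SE 0.37) at regular fat and -0.15 (SE 0.36) at high fat, neither larger than its SE. It was 0.23 at regular fat without RF.Ctrl mouse 2 and 0.08 at high fat without HF.SAAR mouse 1, so its direction rested on single mice. With high fat it was 0.62 (SE 0.37) in restricted and 0.43 (SE 0.37) in control mice. The former was 0.34 without HF.SAAR mouse 2, and the latter was 0.09 without RF.Ctrl mouse 1 and 1.003 without RF.Ctrl mouse 2.

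Gadd45g (ENSMUSG00000021453, chr13:51846678-51848468, plus strand) varied more between mice of a group than between groups. The RF.Ctrl mice were at 69.4, 14.6 and 65.9 CPM and the RF.SAAR mice at 46.7, 159 and 20.03 CPM. The HF.Ctrl mice were at 82.0, 14.3 and 20.1 CPM and the HF.SAAR mice at 38.0, 8.06 and 133 CPM. All 4 groups overlapped, and the highest and the lowest of the HF.SAAR mice differed by 16.5-fold. The log2FC with restriction was 0.59 (SE 1.19) at regular fat and 0.63 (SE 1.20) at high fat, each about 0.5 of its SE. Without RF.SAAR mouse 2 it was -0.58, and without HF.SAAR mouse 3 it was -0.75. The SD of log2 CPM within groups was 1.56, against a median of 0.23 over all genes tested, and 99.3% of those genes had a smaller SD. The SD was 0.53 for Gadd45a, 0.56 for Gadd45b and 0.71 for Cdkn1a.

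**Figure D1:**
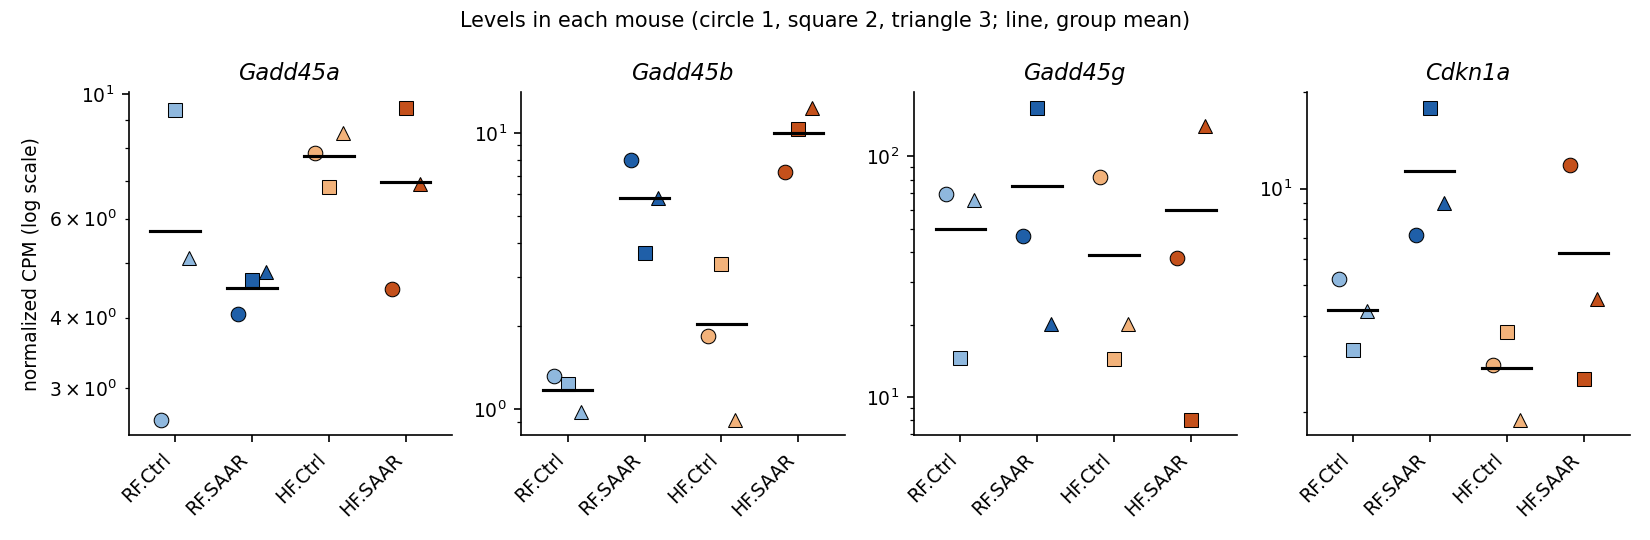
Normalized CPM (log scale) of the 4 genes in each of the 12 mice, by diet group, with circles, squares and triangles for mice 1, 2 and 3 and a line at the group mean. The 6 restricted mice lie between 3.66 and 12.3 CPM for Gadd45b and the 6 control mice between 0.914 and 3.34, while the groups overlap widely for Gadd45a and Gadd45g.

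The order of the group means differed between the genes. For Gadd45b it ran from HF.SAAR over RF.SAAR and HF.Ctrl to RF.Ctrl, and only RF.SAAR and HF.Ctrl among neighbours did not overlap. For Cdkn1a it ran from RF.SAAR over HF.SAAR and RF.Ctrl to HF.Ctrl, with overlap between all neighbours. For Gadd45a it ran from HF.Ctrl over HF.SAAR and RF.Ctrl to RF.SAAR, and for Gadd45g from RF.SAAR over HF.SAAR and RF.Ctrl to HF.Ctrl, again with overlap between all neighbours. Compared per length, in the deposited TPM, Gadd45g was the most abundant of the 4 in every group, with mean levels of 51.9 TPM in RF.Ctrl, 93.2 in RF.SAAR, 37.8 in HF.Ctrl and 78.5 TPM in HF.SAAR. Mean levels of Gadd45a were 5.51 to 8.20 TPM over the groups. Gadd45b was the lowest of the 4 in RF.Ctrl at 1.21 TPM and was second to Gadd45g in both restricted groups, at 8.10 TPM in RF.SAAR and 12.9 TPM in HF.SAAR. Cdkn1a was at 2.48 TPM in RF.Ctrl, 7.80 in RF.SAAR, 1.49 in HF.Ctrl and 4.30 TPM in HF.SAAR.

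Counts over the whole table set the scale for these changes. In RF.SAAR vs. RF.Ctrl, edgeR's quasi-likelihood test called 218 of 14670 genes (1.49%) at an adjusted p under 0.05, 88 higher and 130 lower, and 1 of the 4 genes, Gadd45b, was among them. In HF.SAAR vs. HF.Ctrl it called 289 genes (1.97%), 148 higher and 141 lower, again with Gadd45b alone of the 4. Without overlap, higher in every restricted mouse, were 8.51% of genes tested at regular fat, with 2 of the 4 (Gadd45b and Cdkn1a), and 8.89% at high fat, with 1 of the 4 (Gadd45b). Since the genes were selected on these contrasts, nothing is read from those counts. Gadd45b was not called at regular fat when RF.Ctrl mouse 1, 2 or 3 or RF.SAAR mouse 1 or 3 was left out, nor at high fat without HF.Ctrl mouse 1, although its log2FC stayed between 1.93 and 2.86 over all single mice left out and both fat contents. In HF.SAAR vs. RF.SAAR 0.0477% of genes were called, and in the interaction of restriction and fat 0.00682%, with 0 of the 4 in either. In HF.Ctrl vs. RF.Ctrl edgeR called 0% of genes, while 527 were under an unadjusted p of 0.05 and DESeq2 called 34, none of the 4 by either tool. The interaction was -0.02 (SE 0.49) on the log2 scale for Gadd45b and -0.27 (SE 0.77) for Cdkn1a, each smaller than its SE. Single mice moved these values, for Gadd45b from -0.37 without HF.Ctrl mouse 3 to 0.56 without HF.Ctrl mouse 2, and for Cdkn1a from -1.09 without HF.SAAR mouse 1 to 0.22 without RF.SAAR mouse 2.

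**Figure D2:**
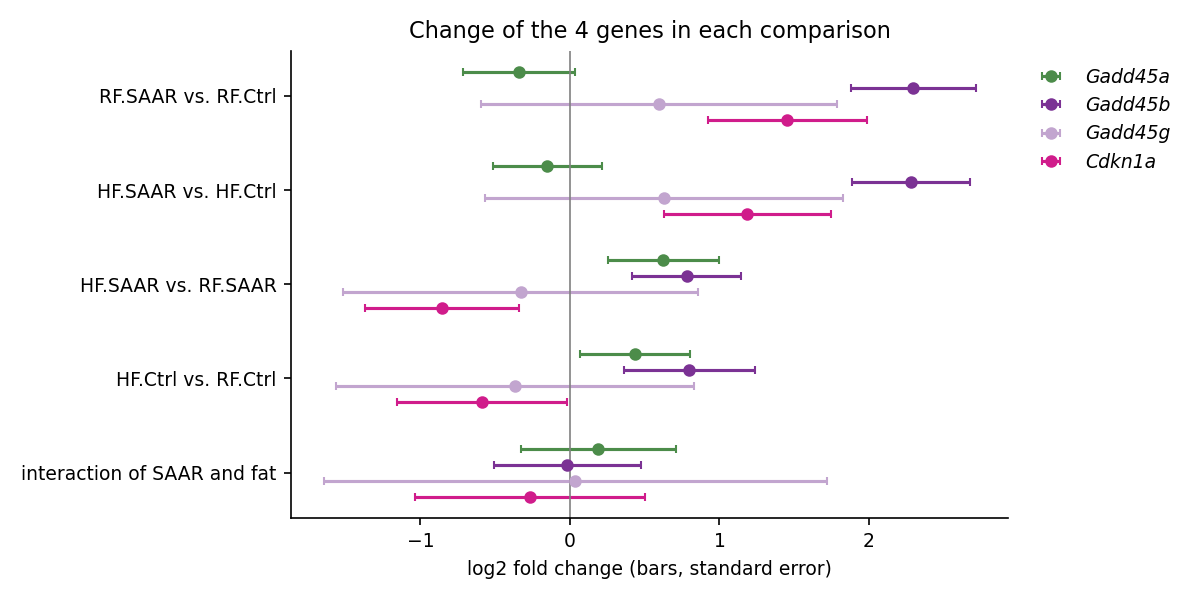
Log2FC of the 4 genes in 4 comparisons and in the interaction of restriction and fat, with bars for the standard error from the edgeR fit over all 12 mice. Gadd45b lies at 2.30 and 2.28 in the comparisons with restriction, Cdkn1a at 1.45 and 1.19, and the bars of Gadd45g span more than 1 log2 unit on either side.

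The 3 Gadd45 genes did not rise and fall together from mouse to mouse. Over the 12 mice, Pearson's r of log2 CPM was -0.02 between Gadd45a and Gadd45b, -0.48 between Gadd45a and Gadd45g and -0.01 between Gadd45b and Gadd45g. Between Cdkn1a and Gadd45a it was -0.66, and -0.61 after each group's mean was removed. Between Cdkn1a and Gadd45b it was 0.39, and -0.19 with the group means removed. Gadd45g and Cdkn1a had the highest r of all pairs, 0.47 over the 12 mice and 0.48 with the group means removed. RF.SAAR mouse 2 had the highest Cdkn1a and the highest Gadd45g of all mice but the lowest Gadd45b of the restricted mice. The points share the 4 group means and the libraries, so these r are descriptions.

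Most reads of each gene were assigned to 1 annotated transcript (GENCODE M21, GRCm38). Over the 12 mice it held 78.7% of the estimated counts of Gadd45a, 81.2% of Gadd45b, 85.4% of Gadd45g and 94.7% of Cdkn1a. Transcripts annotated as retained intron held a mean of 16.4% to 23.8% of Gadd45a counts over the groups and 13.7% to 21.8% of Gadd45g counts. For Gadd45b the retained-intron transcript held 2.84% ± 4.92 in RF.Ctrl, 11.1% ± 8.51 in RF.SAAR, 18.5% ± 18.3 in HF.Ctrl and 14.8% ± 8.65 in HF.SAAR (SD, n = 3), and it was at 0 in 2 of the RF.Ctrl mice. These shares overlapped between the groups within each fat content. For Cdkn1a the coding transcript that starts in the upstream window had 0.895% of the counts, and the one that starts in the downstream window held 94.7%. The upstream window holds the p53 decamers printed above, and which of the 2 starts they act on, if either, was not measured. kallisto splits reads among overlapping transcripts by likelihood, so shares of rare transcripts are uncertain.

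The p53 pathway was examined next, since p53 is the known activator of Gadd45a and Cdkn1a. Of 29 other p53 targets tested, 1 was called higher with restriction at regular fat, and 1 higher and 1 lower at high fat, by edgeR and by DESeq2 alike in number. An unadjusted p under 0.05 (edgeR) was found for 6 at regular fat, 4 higher and 2 lower. At high fat it was found for 4, of which 3 were higher and 1 lower. The gene that edgeR called higher was Ephx1, the microsomal epoxide hydrolase, which is also induced through CAR. It was at 246 to 276 CPM in RF.Ctrl and 412 to 493 CPM in RF.SAAR mice, a log2FC of 0.79 (SE 0.10, adjusted p = 0.00240, edgeR), and its log2FC was 0.60 (SE 0.10, adjusted p = 0.00829) at high fat. Perp, a desmosomal membrane protein, was lower in HF.SAAR vs. HF.Ctrl, by a log2FC of -0.64 (SE 0.14, adjusted p = 0.0359), and that call was lost when any HF.Ctrl mouse, HF.SAAR mouse 1 or 3, or RF.Ctrl mouse 2 or 3 was left out. The median log2FC of the list was -0.02 at regular and 0.11 at high fat, against -0.0013 and -0.0014 over all genes tested. Trp53 itself had log2FC of -0.24 (SE 0.16) and 0.03 (SE 0.16). Mdm2, the ligase that degrades p53, had 0.27 (SE 0.13, adjusted p = 0.367) and 0.29 (SE 0.13, adjusted p = 0.340), with an unadjusted p of 0.0495 and 0.0354 (edgeR). It was higher in every RF.SAAR mouse than in every RF.Ctrl mouse, while the groups overlapped at high fat. Ccng1, cyclin G1, had -0.18 (SE 0.16) and -0.29 (SE 0.16).

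Cell cycle genes, on which p21 and GADD45 proteins act, held no call. None of 4 other CDK inhibitors, 20 cyclins, CDKs and Rb proteins, or 20 replication and mitosis genes was called by edgeR in either comparison with restriction. In these lists, 0, 2 and 2 genes at regular fat and 1, 2 and 1 at high fat had an unadjusted p under 0.05, and DESeq2 called 0 in each. Median log2FC of the lists ranged from -0.14 to 0.17. Cdkn1b, which encodes p27, had log2FC of 0.12 (SE 0.14) and 0.09 (SE 0.14), and Ccnd1, cyclin D1, -0.32 (SE 0.39) and -0.41 (SE 0.39).

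Few partners of GADD45 were called. Of 17 MAPK partners tested, 1 was called lower in each comparison by edgeR and 1 by DESeq2. In each comparison 2 had an unadjusted p under 0.05 (edgeR), both lower. Map2k3, a kinase that activates p38, had a log2FC of -0.48 (SE 0.11, adjusted p = 0.0455, edgeR) at regular fat, and Map2k6, with the same role, of -0.94 (SE 0.22, adjusted p = 0.0485) at high fat. Both calls lay near the threshold and were lost on leaving out single mice, in 9 and 11 of the 12 cases. Both genes were lower in every restricted mouse than in every control mouse of the same fat content, at both fat contents. Map2k3 was at 38.0 to 45.4 CPM in HF.Ctrl and 32.4 to 34.9 CPM in HF.SAAR mice. Map2k6 was at 3.02 to 4.50 CPM in RF.Ctrl and 1.86 to 2.57 CPM in RF.SAAR mice. Map3k4, the kinase that GADD45 proteins bind, had -0.18 (SE 0.16) and -0.16 (SE 0.16). None of 15 DNA demethylation partners was called by edgeR or DESeq2, with 0 and 2 under an unadjusted p of 0.05.

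Stress response genes of ATF4 and CHOP, the factors of the amino acid response, held the most calls of these lists at high fat, but not at regular fat. Of 23 tested, 2 were called higher at regular fat and 7 at high fat, none lower, and the median log2FC was 0.34 and 0.97. Atf5, a factor translated under amino acid stress, was at 202 to 248 CPM in RF.Ctrl and 390 to 459 CPM in RF.SAAR mice, a log2FC of 0.88 (SE 0.13, adjusted p = 0.00508, edgeR). At high fat it rose by 1.68 (SE 0.14, adjusted p = 2.00e-05). Psat1, an enzyme of serine synthesis, rose by 2.42 (SE 0.41, adjusted p = 0.0158) and 4.32 (SE 0.46, adjusted p = 0.000762), the former call being lost without RF.Ctrl mouse 1 or RF.SAAR mouse 1 or 3. Mthfd2, of mitochondrial folate metabolism, rose at high fat by 3.55 (SE 0.34, adjusted p = 9.76e-05). The upstream factors themselves were not called. Atf4 lay in every restricted mouse above the control mice of the same fat content, with log2FC of 0.30 (SE 0.15, adjusted p = 0.413) and 0.49 (SE 0.15, adjusted p = 0.136), and DESeq2, and edgeR with library size alone, called it at high fat. Ddit3, which encodes CHOP, had 0.18 (SE 0.21) and 0.08 (SE 0.21), Ppp1r15a (GADD34, a phosphatase subunit outside the Gadd45 family) 0.14 (SE 0.16) and 0.34 (SE 0.16), Atf3 -0.17 (SE 0.43) and 0.97 (SE 0.42), Trib3 -0.24 (SE 0.33) and 0.67 (SE 0.32), and Cebpb -0.16 (SE 0.34) and -0.22 (SE 0.34). None of these passed the threshold.

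**Figure D3:**
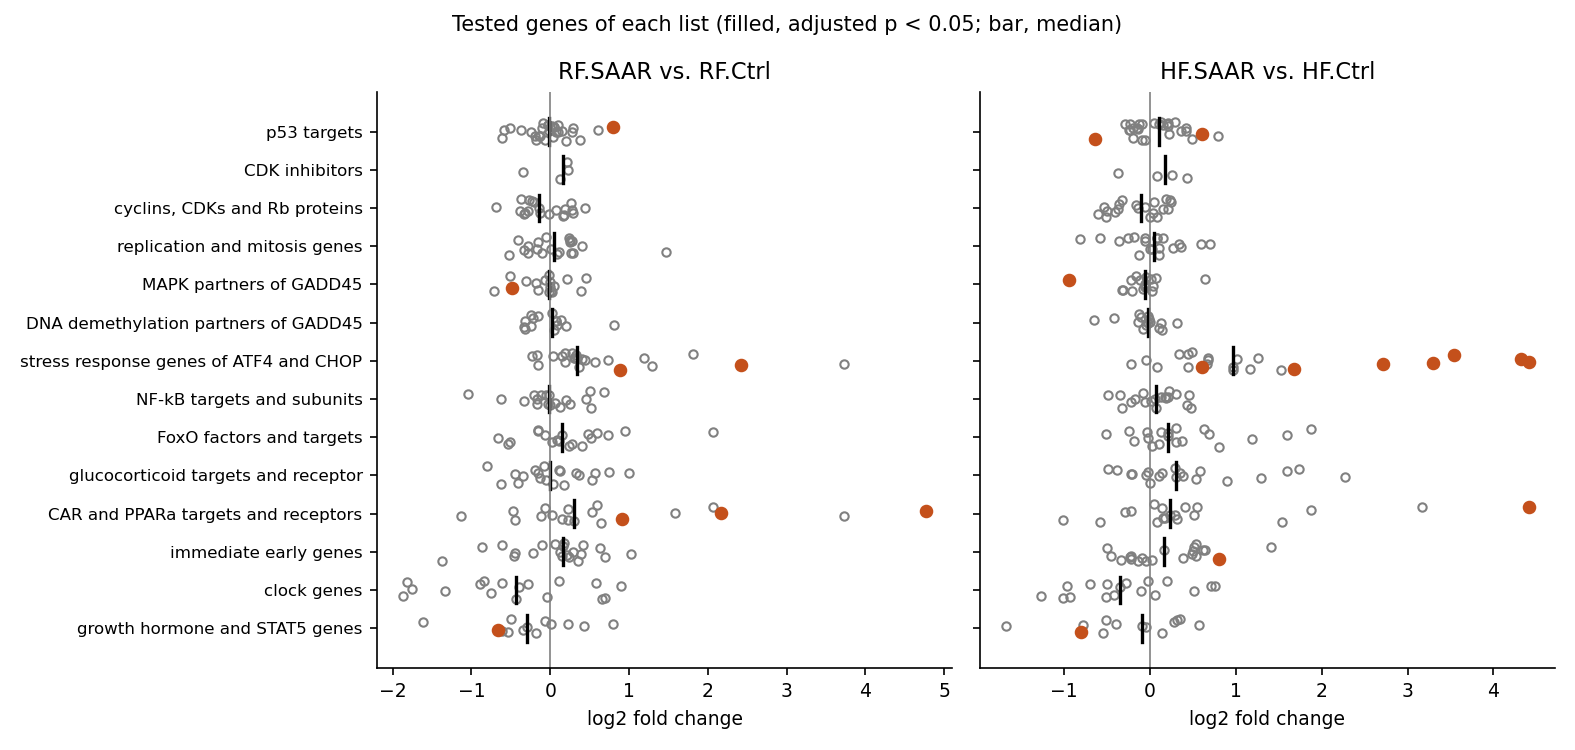
Log2FC with restriction of each tested gene in 14 lists around the 4 genes, at regular fat (left) and high fat (right), with filled points for an adjusted p under 0.05 and a bar at the list's median. The ATF4 and CHOP list holds 2 filled points on the left and 7 on the right, while the cell cycle lists hold none.

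Of the other lists that touch known activators of these genes, that of CAR and PPARa genes held 3 edgeR calls at regular fat. That list joins genes of both receptors, so its counts say nothing of CAR apart from PPARa. The ATF4 and CHOP list held 2, and the rest held fewer. DESeq2 called 5 higher in the CAR and PPARa list and 5 higher in the ATF4 and CHOP list at regular fat. At high fat it called 4 higher and 1 lower in the former and 9 higher in the latter. In the lists of NF-kB (19 genes tested), FoxO (19) and glucocorticoid genes (20), edgeR called 0 in either comparison, with 3, 6 and 4 under an unadjusted p of 0.05 at regular fat and 1, 3 and 5 at high fat. DESeq2 called 0, 1 and 0 at regular fat and 0, 1 and 2 at high fat. Of 19 CAR and PPARa genes, 3 were called higher at regular fat and 1 at high fat by edgeR. The 1 at high fat was Fgf21, which is in both lists and is also counted among the 7 calls of the ATF4 and CHOP list. Ehhadh, of peroxisomal fat oxidation, had a log2FC of 0.91 (SE 0.17, adjusted p = 0.0185, edgeR), and the fatty acid hydroxylases Cyp4a14 and Cyp4a10 had 4.77 (SE 0.74, adjusted p = 0.0199) and 2.17 (SE 0.42, adjusted p = 0.0408). These 3 calls were lost when any RF.Ctrl mouse was left out, for Ehhadh also without RF.SAAR mouse 2 or 3, and for Cyp4a10 also when any RF.SAAR or HF.Ctrl mouse or HF.SAAR mouse 1 was left out. Fgf21, the hepatic hormone induced by amino acid restriction, rose at high fat by 4.41 (SE 0.77, adjusted p = 0.0241), a call lost when any HF.Ctrl mouse or HF.SAAR mouse 2 or 3 was left out, and had 3.73 (SE 0.75, adjusted p = 0.0533) at regular fat. Of 21 immediate early genes, 1 was called at high fat, Klf6, at 0.81 (SE 0.18, adjusted p = 0.0369), which was lost on leaving out any mouse of those 2 groups, RF.Ctrl mouse 2 or RF.SAAR mouse 1. Of 13 growth hormone and STAT5 genes, Ghr, the growth hormone receptor, was called lower in both, at -0.66 (SE 0.10, adjusted p = 0.00482) and -0.81 (SE 0.10, adjusted p = 0.000761).

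Over all mice Gadd45b lay closest to the ATF4 and CHOP genes among the list sums, and less so within groups. The summed level of that list ranged over 582 to 650 CPM in RF.Ctrl mice, 881 to 951 in RF.SAAR, 490 to 630 in HF.Ctrl and 974 to 1396 CPM in HF.SAAR. Over the 12 mice Pearson's r between the log2 values was 0.91 and Spearman's rho 0.92. It was 0.88 without the 2 mice farthest from the median of the list, and 0.57 with the group means removed. Over all mice, r to Gadd45b was -0.89 for the sum of growth hormone and STAT5 genes and 0.85 for that of p53 targets, and with the group means removed it was -0.13 and 0.01. The sums add CPM, so abundant genes weigh most. The p53 sum was 825 to 862 CPM in RF.Ctrl and 991 to 1115 CPM in RF.SAAR mice, of which Ephx1 alone held 246 to 276 and 412 to 493 CPM. At high fat the sum was 866 to 1017 and 1073 to 1152 CPM, and Ephx1 284 to 338 and 441 to 503 CPM. With the group means removed, NF-kB genes (0.72), pancreatic acinar markers (0.68) and FoxO genes (0.64) had a higher r to Gadd45b than the ATF4 and CHOP genes had. Over the 12 mice, all 24 genes of the ATF4 and CHOP list had a positive r with Gadd45b, with a median of 0.68. With the group means removed, r ranged from -0.42 for Atf3 to 0.78 for Nupr1. It was then also below 0 for Ppp1r15b (-0.34) and Trib3 (-0.01), and close to 0 for Asns (0.01) and Psat1 (0.01). Of all genes tested outside the 4, those most like Gadd45b in log2 CPM were Coq10a (r = 0.97), Fgf21 (0.94), Ddx4 (0.94), Apcs (0.92) and Ctsz (0.92). Fgf21 was at 0.668 to 2.61 CPM in the 6 control mice and 8.64 to 45.5 CPM in the 6 restricted mice. With the group means removed, r to Gadd45b was 0.78 for Coq10a and 0.72 for Fgf21.

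Cdkn1a ran opposite to the summed level of the clock genes. None of 17 clock genes was called by edgeR, but 11 at regular fat and 4 at high fat were under an unadjusted p of 0.05, and DESeq2 called 9 and 1. At regular fat the 11 were 3 higher and 8 lower with restriction. Dbp, a PAR-domain factor driven by the clock, was at 62.7 to 114 CPM in RF.Ctrl and 12.8 to 42.2 CPM in RF.SAAR mice. Bhlhe41, a repressor of the clock, was at 4.81 to 10.6 CPM in RF.Ctrl and 1.76 to 2.67 CPM in RF.SAAR mice, a log2FC of -1.81 (SE 0.41, adjusted p = 0.0534, edgeR). The log2FC was 0.90 (SE 0.48) for Arntl and 0.66 (SE 0.30) for Cry1, which peak at another phase of the day. The summed level of the clock genes was 576 to 724 CPM in RF.Ctrl mice, 406 to 534 in RF.SAAR, 674 to 830 in HF.Ctrl and 492 to 659 CPM in HF.SAAR.

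Against that sum, log2 CPM of Cdkn1a had r = -0.92 and Spearman's rho = -0.87 over the 12 mice. The r was -0.91 without the 2 mice farthest from the median of the sum and -0.82 with the group means removed. In RF.SAAR the mouse with the most Cdkn1a (mouse 2, 17.9 CPM) had the lowest clock sum, 406 CPM, and in HF.SAAR the mouse with the most (mouse 1, 11.8 CPM) had the lowest of its group, 492 CPM. HF.SAAR mouse 2, whose Cdkn1a was within the control range, had the highest clock sum of the restricted mice, 659 CPM. Of the 17 genes, 12 had a negative r with Cdkn1a and 5 a positive one, from -0.91 for Bhlhe41 to 0.81 for Cry1, so the sum joins genes of both directions. The r of -0.92 with the clock sum was the largest in size of the 96 between the 4 genes and the 24 list sums. It was noticed among them. With the group means removed, the largest was -0.85, between Gadd45a and the glucocorticoid genes. Gadd45a went with the clock sum in the other direction, with r = 0.62 over the 12 mice and 0.65 with the group means removed. Over the 12 mice, 11 of the 17 clock genes had a positive r with Gadd45a and 6 a negative one. The hour at which each mouse was killed is not among the labels used here, and its part in the levels of Cdkn1a was not tested.

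**Figure D4:**
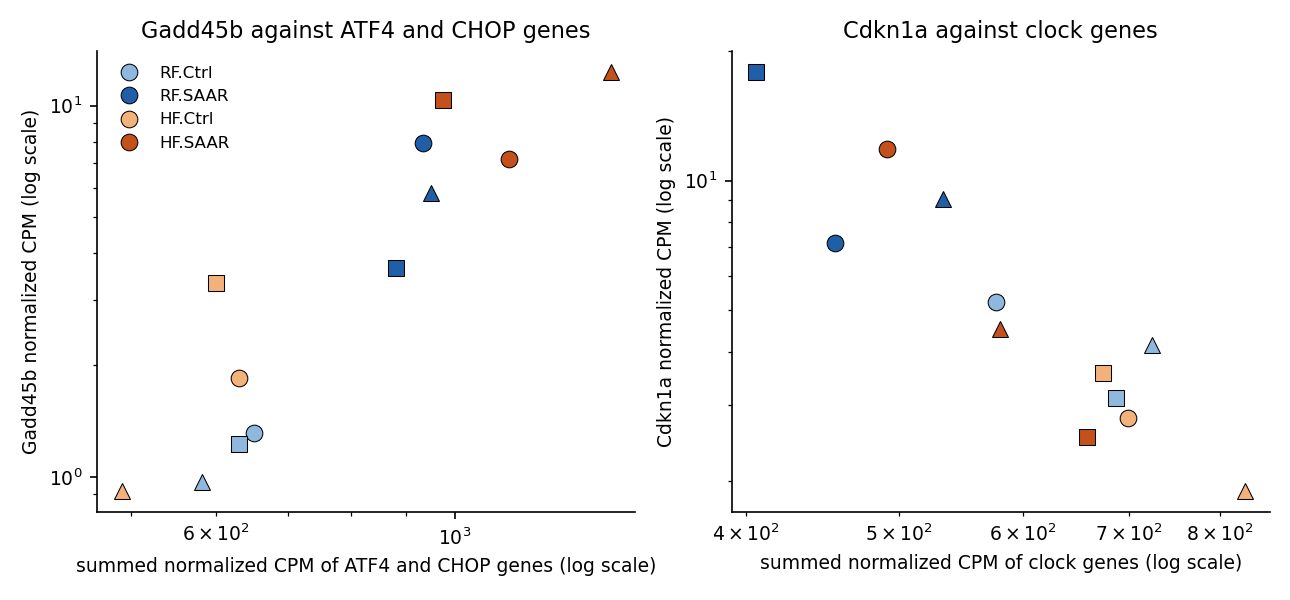
Left, Gadd45b against the summed level of ATF4 and CHOP genes, and right, Cdkn1a against the summed level of clock genes, both in normalized CPM on log scales, with 1 point for each of the 12 mice coloured by group. Gadd45b rises with the list's sum (r = 0.91), mainly between control and restricted mice, and Cdkn1a falls with the clock sum (r = -0.92) within groups as well.

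Genes most like Gadd45a, Gadd45g and Cdkn1a were different ones. For Gadd45a they were Tns2 (r = 0.92), Arrdc3 (0.91), Ggnbp2 (0.90), Irf1 (0.89) and Lyrm9 (0.86). RF.Ctrl mouse 2, with the most Gadd45a of its group, had 302 CPM of Arrdc3 against 49.8 and 89.2 CPM in the other two. The summed level of immediate early genes had r = 0.71 with Gadd45a, and was likewise highest in that mouse within RF.Ctrl, at 552 CPM. For Gadd45g they were Vtcn1 (0.88), Pld3 (0.86), Vmn1r77 (0.84), Vmp1 (0.83) and Myc (0.82), of which Vtcn1 and Vmn1r77 had mean levels of 0.395 and 0.755 CPM. Myc, an early growth gene, was at 29.5 and 26.99 CPM in RF.SAAR mouse 2 and HF.SAAR mouse 3, the 2 mice with the most Gadd45g, and at 2.56 to 11.5 CPM in the other 10. For Cdkn1a they were Psmd11 (0.92), Rabgef1 (0.87), Leprotl1 (0.87), Fam222b (0.87) and Ino80c (0.87). Each name was picked as the highest of 14666 r over 12 mice, so the values are high by selection.

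The libraries held 16203094 to 21230092 estimated counts, with 6.55% to 6.72% from mitochondrial genes in RF.Ctrl, 5.61% to 6.08% in RF.SAAR, 6.13% to 7.07% in HF.Ctrl and 5.94% to 6.51% in HF.SAAR. Markers of hepatocytes, which make up most of the liver, summed to 84146 to 100384 CPM in the RF.Ctrl mice, 76532 to 84692 in the RF.SAAR mice, 77133 to 92638 in HF.Ctrl and 80323 to 90385 CPM in HF.SAAR. In RF.SAAR vs. RF.Ctrl the median log2FC of these 7 genes was -0.24 and 1 of 7 was positive, with none called. In bulk tissue, fewer cells of a type and less RNA per cell cannot be told apart. Pancreatic acinar genes summed to 1638 CPM in RF.Ctrl mouse 1, 1825 and 7039 in HF.Ctrl mice 1 and 2, and 4059 and 17834 CPM in HF.SAAR mice 2 and 3, and to 40.7 to 94.9 CPM in the other 7 mice. All 22 of those genes were tested, and none was at 0 in all mice. Their sum had r = 0.29 to Gadd45b over all mice and 0.68 with the group means removed. In the 7 mice alone, the log2FC with restriction at regular fat was 2.39 (SE 0.38) for Gadd45b and 1.65 (SE 0.43) for Cdkn1a. At high fat it was 2.94 and 2.62, but only HF.SAAR mouse 1 and HF.Ctrl mouse 3 were left, so these 2 values compare single mice. The SE come from the regular-fat mice alone. For Cdkn1a the lone mice were the highest HF.SAAR mouse (11.8 CPM) and the lowest HF.Ctrl mouse (1.89 CPM). For Gadd45b each was the lowest of its group, at 7.18 and 0.914 CPM. Erythroid markers (5 genes) summed to 594 to 672 CPM in RF.Ctrl and 318 to 393 CPM in RF.SAAR, and to 444 to 468 and 243 to 553 CPM in HF.Ctrl and HF.SAAR, with r = -0.71 to Gadd45b over all mice and -0.17 with the group means removed. Cholangiocyte markers (6 genes) had r = -0.68 to Gadd45b over all mice and 0.34 with the group means removed, and summed to 43.0 to 62.1 CPM in RF.Ctrl mice, 36.2 to 43.1 in RF.SAAR, 43.1 to 58.3 in HF.Ctrl and 35.2 to 38.7 CPM in HF.SAAR. For Kupffer cell markers r to Gadd45b was 0.41, and 0.38 with the group means removed. In the same order it was 0.39 and 0.42 for lymphocyte and 0.40 and 0.52 for adipose markers. For endothelial markers it was 0.33 and -0.10, for stellate -0.22 and 0.20, and for neutrophil 0.05 and 0.13. With restriction, 4 of 10 Kupffer genes had a positive log2FC at regular fat and 10 of 10 at high fat, with none called. The part of these markers in the levels of Gadd45b was not tested.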

How the data were processed

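Libraries were made from polyadenylated liver RNA and sequenced as pairs. Per the labels and methods, the authors used cutadapt for trimming, checked reads with FastQC and assigned them with kallisto to the Ensembl mouse transcripts (release 94 in the study's methods), and compared groups with DESeq2. The deposited estimated counts and TPM per transcript are not normalized between mice or filtered, and the deposited effective lengths are in bases (other columns were not needed). As kallisto shares reads among similar transcripts, values of single transcripts are less certain than sums per gene.

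Of 118489 transcripts listed, 116816 were matched to GENCODE M21 (GRCm38), and the other 1673 held 1.08% of the counts. Estimated counts were summed per gene, rounded and fitted in R 4.3.3 with edgeR 4.0.16 (filterByExpr by group, TMM, robust quasi-likelihood F-test, all 12 mice in 1 fit with a coefficient per group), with Benjamini-Hochberg adjustment over the 14670 genes tested in each comparison. The fits were tested on simulated data. A call is an adjusted p under 0.05, SE is the log2 fold change divided by the square root of F, and log2 CPM has a prior count of 2, or 0.1 CPM added where list sums are compared. No 2 libraries were identical. The errors come from 3 mice a group, so p-values measure the spread between mice only. No batch is given in the labels.

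The 4 genes, the 14 pathway lists (267 genes, 253 tested) and the 10 marker lists were chosen with earlier results of these data known, and the lists were written from general knowledge. Named are the 4 genes, 12 central genes of their pathways, up to 3 genes called in each direction per list and comparison with the smallest p, and the 5 genes with the highest r to each of the 4. Clock genes, Myc and Arrdc3 were described further after their values were seen. Alternatives were RLE size factors, library size alone, no filter, at least 10 counts in every mouse, effective-length offsets, the 2 groups alone, DESeq2 1.42.0, the most abundant transcript, no pancreatic acinar genes and each mouse left out. Leaving out the 5 mice with over 1000 CPM of pancreatic acinar genes, and a block for runs of consecutive mouse names, were chosen after seeing the data.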

Additional observations from a re-analysis of the deposited data

How the results depend on the processing

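The labels give no replicate numbers, but the mouse names form 3 runs of 4 consecutive names with 1 mouse of each group. Deviations from the group means were compared between mice of different groups. They correlated at a median of 0.20 between mice of a run (over 0.1 in 13 of 18 pairs) and -0.12 between mice of different runs. Deviations sum to 0 within a group, so a positive r within runs brings a negative r between runs, and the latter is no separate evidence. In these pairs 10 of 12 mice correlated best with a mouse of their own run, a hint from the data, not the design. With the run as a block, chosen after seeing the data, genes and pathway genes called became 348 and 16 with restriction at regular fat, 410 and 14 at high fat, 14 and 1 in HF.SAAR vs. RF.SAAR, and 1 and 0 in HF.Ctrl vs. RF.Ctrl. With the block, the log2 fold change of Gadd45b with restriction was 2.31 (SE 0.47) at regular fat and 2.30 (SE 0.44) at high fat. The calls of Cyp4a14 at regular fat and Fgf21 at high fat were not made with the block. The log2 fold change of Gadd45b with restriction stayed between 2.23 and 2.94 over the alternatives other than single mice left out, and that of Cdkn1a between 1.13 and 2.62, each without a change of sign. The upper limits, 2.94 and 2.62, come from the 7 mice at high fat, with 1 mouse in each group. In the 7 mice with under 1000 CPM of pancreatic acinar genes, the log2 fold change with high fat turned from 0.62 to -0.0135 for Gadd45a and from -0.85 to 0.0509 for Cdkn1a in restricted mice, from 0.80 to -0.26 for Gadd45b in control mice, and that of Atf3 in HF.SAAR vs. HF.Ctrl from 0.97 to -0.14, with fewer mice in each fit. With the most abundant transcript alone, Map3k4 in RF.SAAR vs. RF.Ctrl turned from -0.18 to 0.0292, and Gadd45b was no longer called at regular fat. DESeq2 called Gadd45b and Cdkn1a at regular fat and Gadd45b at high fat. These genes were selected on the same contrasts, so no such call is a test of them.

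Counts of calls also changed with the settings, and the cause was not tested. In RF.SAAR vs. RF.Ctrl 218 genes and 8 pathway genes became 425 and 14 with library size alone, 606 and 24 with DESeq2, 135 genes with the most abundant transcript, and 81 and 3 in the 7 mice. In HF.SAAR vs. HF.Ctrl 289 and 12 became 719 and 20 with library size alone, 605 and 25 with DESeq2, 190 genes with the 2 groups alone, and 6 and 2 in the 7 mice. Library size alone moved the median log2 fold change of all genes to 0.16 and 0.17 and the split of calls from 88 higher and 130 lower to 359 and 66, and from 148 and 141 to 639 and 80. In HF.SAAR vs. RF.SAAR 7 genes became 4 with library size alone, 14 without a filter, 86 with DESeq2, 3 with the most abundant transcript and 0 in the 7 mice, and 0 pathway genes became 1 without a filter, 2 with the 2 groups alone and 4 with DESeq2. In HF.Ctrl vs. RF.Ctrl 0 genes became 1 with library size alone, 3 without a filter, 2 with the 2 groups alone and 34 with DESeq2, which called 2 pathway genes. The interaction held 1 gene, 0 with length offsets or the most abundant transcript, and 16 with 2 pathway genes with DESeq2. Over the 12 single mice left out, genes called ranged from 87 to 244 and pathway genes from 3 to 9 in RF.SAAR vs. RF.Ctrl, from 110 to 310 and from 5 to 12 in HF.SAAR vs. HF.Ctrl, from 1 to 7 and from 0 to 1 in HF.SAAR vs. RF.SAAR, from 0 to 2 and from 0 to 1 in HF.Ctrl vs. RF.Ctrl, and from 0 to 2 and from 0 to 1 in the interaction. Of the 17 calls of named pathway genes, 4 (Ephx1 at regular fat, Atf5 at both fat contents and Mthfd2 at high fat) held under all alternatives run, and 9 were lost on leaving out some mouse. The few estimated counts of Gadd45b in control mice limit the precision of its fold change.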
